A study of Mus musculus with 6 samples.

Results

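Caspases, BCL2 proteins, inhibitor of apoptosis proteins (IAPs), death receptor genes, RIP kinases and the inflammasome adaptor were followed in the livers of male mice on a diet that lacked choline and folic acid. Members were taken from the gene names printed on the array: names that start with Casp and a digit, Bcl2, Birc (apart from Birc5), Nlrp or Nlrc, and 23 named genes such as Bid, Fas and Mlkl. This gave 121 spots, 85 probes and 52 genes, out of 41174 probes on the array. Of the 52 genes, 45 were bright enough to be tested, among 15905 tested genes in all. No name on the array started with Nlrp or Nlrc, and none read Xiap or Aim2, so the inflammasome sensors were outside the set and Pycard stood for the complex together with its caspases and the Birc1 genes. Xiap was present as Birc4, and Birc1a, Birc1b, Birc1c, Birc1e and Birc1f are older names of the Naip genes.

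The animals were C57BL/6J mice, an inbred laboratory strain, allocated at random at 8 weeks of age and studied at 20 weeks, after 12 weeks of feeding. Both diets shared an amino acid-defined, iron-supplemented base. The CFD diet (choline- and folate-deficient) held no choline, no folic acid and 0.17% methionine, and the control diet held 0.3% choline bitartrate, 2 mg/kg folic acid and 0.4% methionine. Total liver RNA was labelled with Cy3 and hybridised to 1-colour Agilent arrays, 3 for each diet, and the comparison asks how gene expression in the liver differed between the diets. The labels number the replicates without saying that each was a separate mouse. The p-values below therefore rest on the spread of these samples alone, and part of it may be technical.

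The scanner software flagged 21685 to 26264 probes of a control array, and 23580 to 29035 of a CFD diet array, as well above background. The signal at the 75th percentile ranged from 365.0 to 438.8 for control and from 404.1 to 670.2 for the CFD diet, and 0 spots were saturated. Each of 3 slides held 1 control and 1 CFD diet array. Levels below are log2 signals relative to the array's 75th percentile, so 0 is that percentile. Differences are CFD diet minus control on the same scale, with limma's standard error (n = 3 arrays in each group). Adjusted p-values are Benjamini-Hochberg values over all 15905 genes, and a gene is called at an adjusted p below 0.05. A gene with several probes is represented by its brightest tested probe.

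Apoptosis runs along a pair of routes that meet at the executioner caspases, which cut cell proteins once they are activated. In the death receptor route, receptors such as FAS gather the adaptor FADD and caspase-8. In the mitochondrial route, BH3-only proteins release the pore formers BAX and BAK from survival proteins such as BCL2, and cytochrome c leaving the mitochondrion assembles APAF1 and caspase-9. Necroptosis, driven by RIPK3 and MLKL, and pyroptosis, driven by inflammasomes that activate inflammatory caspases, rupture the cell. Hepatocytes are known to need BID to amplify the death receptor signal, and MCL1 and BCL-xL are their main survival proteins.

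The inflammatory caspases, the inflammasome adaptor Pycard, the necroptosis effector Mlkl and the A1 survival genes were higher on the CFD diet, while Casp9, the apoptosome caspase, and Cflar, an inhibitor of caspase-8, were lower. Of 45 tested members, 19 rose and 7 fell, which is 42.2% and 15.6%, against 23.7% of all tested genes that rose and 27.4% that fell (51.1% in either direction). Changes of at least 2-fold were seen for 14 members, 12 upward and 2 downward, or 31.1% of the tested members against 24.6% of all genes. The median difference was 0.35 over the tested members and -0.11 over all tested genes. All 3 CFD diet values lay above all 3 control values for 25 members (55.6%, against 28.4% of all genes) and below them for 9 (20%, against 34.6%). With each array scaled to its median, which shifted the median of all genes to -0.31, 15 members rose and 10 fell, while 18.4% of all genes rose and 36.5% fell, so directions are relative to the scaling. Without control replicate 3, 4 members fell, and the share of all genes that fell dropped to 17.4%.

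**Figure D1:**
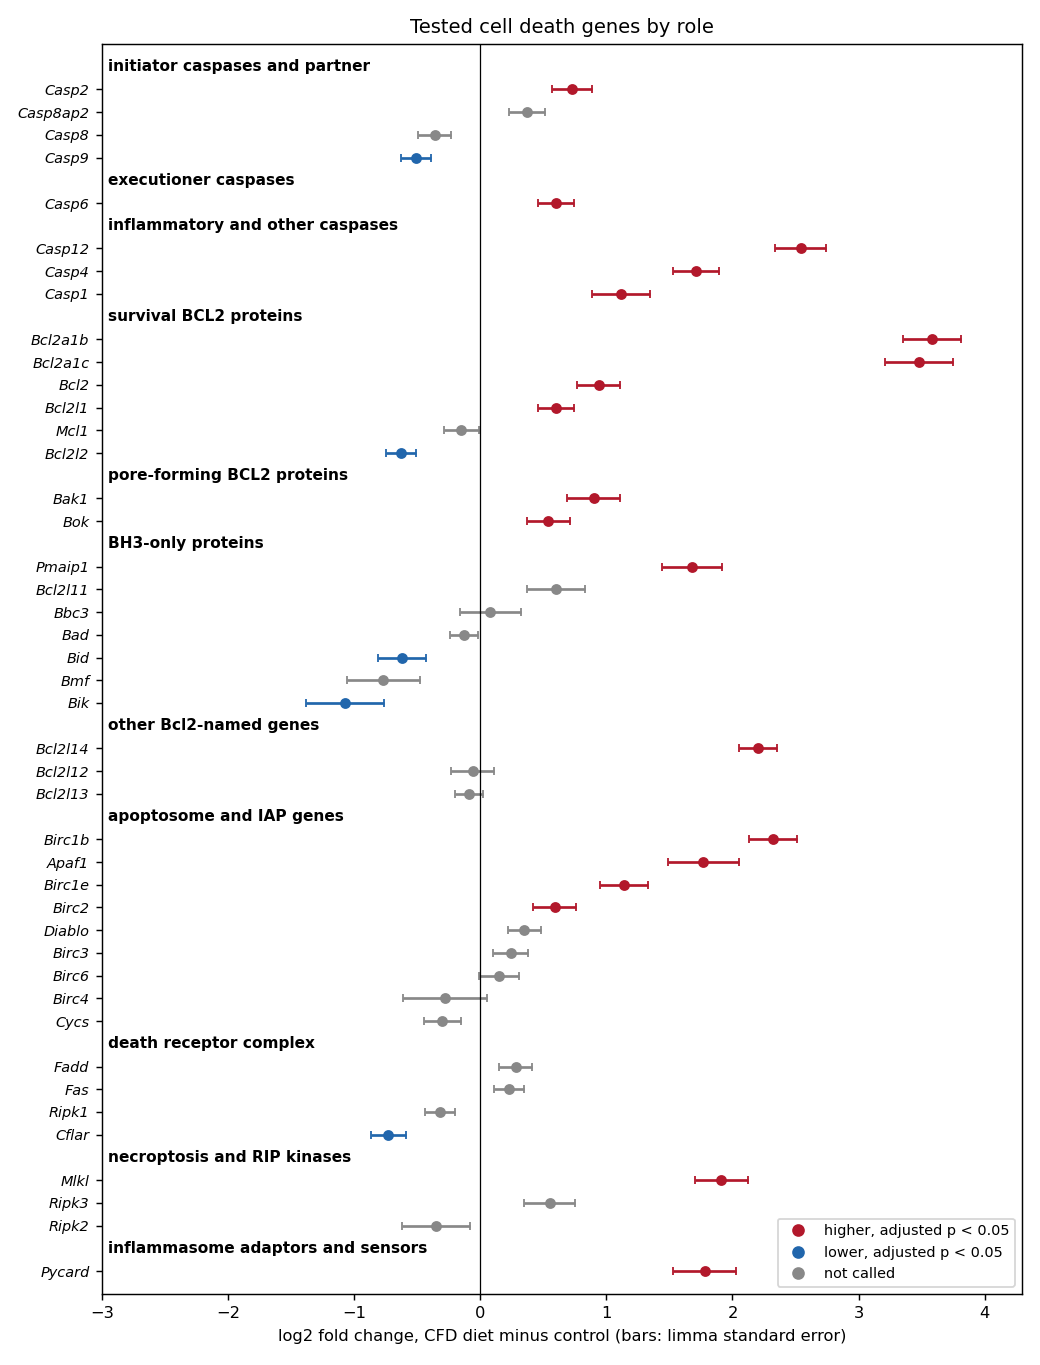
Log2 fold change, CFD diet minus control, of 43 tested members grouped by role, with limma standard errors from 3 arrays in each group. Red marks the 19 members called higher and blue 5 called lower. All 3 inflammatory caspases lie to the right of 0, from 1.12 to 2.54, and Bik lies at -1.07.

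Marker genes of several cell types differed between the groups as well, and their part in the results on the cell death genes was not tested. In whole liver, fewer cells of a type and less RNA per cell cannot be told apart. Of 7 macrophage and Kupffer cell markers, 5 rose, led by Cd68 (2.58 ± 0.17), and the Kupffer cell lectin Clec4f fell (-0.73 ± 0.21). Cd163 differed by -2.02 ± 0.71 and missed the threshold (adjusted p = 0.0502). The summed signal of that list, with the 75th percentile set to 1000, was 97780 to 149200 in the controls and 296900 to 429300 on the CFD diet. All 4 tested neutrophil markers rose, with sums of 1377 to 2342 and 18860 to 24990, while Mpo was well above background on 1 array of each group and had no test. All 5 duct cell markers rose (sums of 5734 to 8906 and 88450 to 122800), as did all 6 stellate cell markers (67780 to 76650 and 169000 to 195200) and all 5 markers of dividing cells (1139 to 1429 and 4196 to 7652). The neutrophil marker Retnlg and the duct cell marker Epcam were well above background on 1 control array, so they were tested through the CFD diet arrays. Of 5 tested hepatocyte markers, 3 fell, with sums of 1561000 to 1941000 and 936300 to 1626000, and these genes were bright on every array, as the liver label says. Of 4 tested T and NK cell markers, 0 were called, and of 3 B cell markers 1 fell. Of 5 endothelial markers 1 rose and 2 fell.

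Casp1, Casp4 and Casp12 lie next to each other on mouse chromosome 9, and all of them rose. Their probes map to 5223467-5223969, 5253886-5253945 and 5289499-5289558 in build mm7, with gaps of 29.9 and 35.6 kb between them. Their promoters, each 250 bases before to 50 bases after the start site in RefSeq (GRCm38.p6, plus strand), are printed because these neighbours moved together. Of 6 neighbouring pairs of tested members with probes within 100 kb, 3 were called the same way: both pairs here and Birc1b with Birc1e. Capitals mark matches to the NF-kB consensus or to the STAT site TTCNNNGAA, with both strands searched. The Casp4 run holds 3 NF-kB matches, an overlapping pair that starts 93 and 92 bases before the start site and another that starts 39 bases before it. The Casp12 run holds 2 STAT matches, 102 and 36 bases before it, and the Casp1 run holds neither motif.
Casp1, chr9:5298267-5298566: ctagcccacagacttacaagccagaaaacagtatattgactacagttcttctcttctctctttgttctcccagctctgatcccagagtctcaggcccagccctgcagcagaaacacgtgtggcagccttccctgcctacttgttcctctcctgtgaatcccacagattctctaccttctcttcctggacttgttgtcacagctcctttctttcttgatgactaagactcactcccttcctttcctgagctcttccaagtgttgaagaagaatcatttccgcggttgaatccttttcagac
Casp4, chr9:5308599-5308898: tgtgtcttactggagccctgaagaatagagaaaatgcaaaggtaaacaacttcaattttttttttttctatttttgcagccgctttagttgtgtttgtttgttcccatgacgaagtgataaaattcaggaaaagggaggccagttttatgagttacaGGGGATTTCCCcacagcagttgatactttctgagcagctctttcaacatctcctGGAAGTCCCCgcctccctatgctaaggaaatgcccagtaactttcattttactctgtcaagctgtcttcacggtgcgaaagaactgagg
Casp12, chr9:5345226-5345525: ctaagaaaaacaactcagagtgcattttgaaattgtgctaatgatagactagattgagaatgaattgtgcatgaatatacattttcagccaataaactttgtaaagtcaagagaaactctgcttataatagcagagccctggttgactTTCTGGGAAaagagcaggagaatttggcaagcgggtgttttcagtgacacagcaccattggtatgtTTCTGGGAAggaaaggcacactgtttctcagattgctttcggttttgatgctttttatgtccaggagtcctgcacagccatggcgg
Of 32544 promoters of this length, 8.49% hold an NF-kB match and 8.33% a match to TTCNNNGAA. Among the 19 members that rose, 18 had a promoter in the table, and 3 of them (Casp4, Bcl2l1 and Birc1e) held an NF-kB match in at least 1 of their promoters. Among the 7 that fell, 4 had a promoter, and 0 held such a match. Among the 19 that were not called, 18 had a promoter, and 3 (Bbc3, Birc4 and Bmf) held an NF-kB match. The interferon element GAAANNGAAA, searched on both strands and present in 3.45% of all promoters, was found in those of Cflar and of Ripk1, which was not called, and in 0 of the members that rose. The STAT site was found in 1 of the 18 that rose (Casp12) and in 2 of the 18 that were not called (Fas and Ripk1). Some genes have several promoters, so these counts are descriptions with no test.

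Casp1, which cleaves the precursors of interleukin-1β and interleukin-18, had log2 levels of 0.28, 0.00 and -0.08 in the controls, compared with 0.93, 0.98 and 1.66 on the CFD diet. Every CFD diet value was above every control value, and CFD diet replicate 3 was the highest. The rise was 1.12 ± 0.23 (2.18-fold, adjusted p = 0.00690). Casp4, which in mice senses cytosolic endotoxin, stood at -0.03, -0.17 and -0.40 in the controls and at 1.24, 1.51 and 1.80 on the CFD diet. Its groups did not overlap either, and it rose by 1.71 ± 0.18 (3.28-fold, adjusted p = 0.000683). Casp12, a caspase of the same cluster that has been linked to the endoplasmic reticulum, stood at -2.75, -2.87 and -3.22 in the controls and at -0.71, -0.42 and -0.09 on the CFD diet. It rose the most of the caspases, by 2.54 ± 0.20 (5.82-fold, adjusted p = 0.000256), and by 1.62 with normexp background correction. Within slides 1, 2 and 3, Casp1 differed by 0.65, 0.97 and 1.74, Casp4 by 1.27, 1.67 and 2.20 and Casp12 by 2.04, 2.45 and 3.13. Casp14, a caspase of the epidermis, was well above background on 1 control array and was not tested.

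Pycard encodes ASC, the adaptor that joins inflammasome sensors to caspase-1. Its log2 level was 0.20, 0.52 and 0.14 in the controls and 1.54, 2.27 and 2.39 on the CFD diet, so the groups were apart. The rise was 1.78 ± 0.25 (3.44-fold, adjusted p = 0.00187), and another probe, which overlaps the first in position, gave 2.02 ± 0.23. Birc1b (Naip2) and Birc1e (Naip5), whose proteins detect parts of bacterial secretion systems and flagellin for the NLRC4 inflammasome, rose as well. Birc1b stood at -0.39, -0.55 and -0.55 in the controls and at 1.79, 1.49 and 2.16 on the CFD diet. That is a rise of 2.32 ± 0.19 (4.98-fold, adjusted p = 0.000258). Birc1e rose by 1.14 ± 0.19 (2.21-fold, adjusted p = 0.00336), from -2.32, -2.19 and -2.43 to -1.07, -1.54 and -0.91. The Naip genes are near-identical neighbours on chromosome 13, with the Birc1b and Birc1e probes 69.7 kb apart, so signal may be shared between them. Birc1a, Birc1c and Birc1f were not tested.

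The sensors themselves, carried on the array under names such as Nalp6, Cias1 and Card12, were matched through accessions or older symbols to 18 genes with 25 probes. Of these, 5 genes were bright enough to be tested. Nlrp3, the best known sensor, was well above background on 1 control and 1 CFD diet array, with levels of -5.33, -6.23 and -6.28 against -5.54, -5.85 and -6.26, and Aim2, a sensor of cytosolic DNA, on 0 arrays. Nlrc4 rose by 1.53 ± 0.32 (adjusted p = 0.00825) and Nlrc3, known as a restrainer of innate signalling, by 0.97 ± 0.19 (adjusted p = 0.00601), each well above background on 1 control array. Nlrp6, a sensor best known from the intestinal epithelium, fell from 3.99, 4.16 and 4.25 to 1.05, 2.92 and 1.67. Its groups were apart, with CFD diet replicate 2 the nearest to the controls, and it changed by -2.25 ± 0.44 (adjusted p = 0.00633), with -2.72 ± 0.51 from another probe. Nlrp2 changed by -0.71 ± 0.15 (adjusted p = 0.00910). The bright Nlrp12 probe gave -0.79 ± 0.24 (adjusted p = 0.0332), whereas a dim Nlrp12 probe gave 2.55 ± 0.36. The dim probe was well above background on 1 control array and was tested through the CFD diet arrays. The probes differed in sign, and the reason was not tested.

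Casp6, whose substrates include nuclear lamins, stood at 4.34, 4.58 and 4.33 in the controls and at 4.85, 5.18 and 5.01 on the CFD diet. Every CFD diet value was above every control value. The rise of 0.60 ± 0.14 (adjusted p = 0.0127) missed the threshold after median scaling (0.39, adjusted p = 0.0921), without the filter on dim probes (adjusted p = 0.0584) and without control replicate 3 (adjusted p = 0.0546). After quantile normalization it was 0.98.

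Among the initiators, Casp2, which responds to DNA damage, rose and Casp9, the caspase of the apoptosome, fell. Casp2 stood at 1.08, 0.70 and 1.00 in the controls and at 1.62, 1.49 and 1.87 on the CFD diet, a rise of 0.73 ± 0.16 (1.66-fold, adjusted p = 0.00986). Casp9 stood at 1.66, 1.67 and 1.81 in the controls and at 1.07, 1.29 and 1.24 on the CFD diet. It changed by -0.51 ± 0.12 (1.43-fold lower, adjusted p = 0.0125), and the call ended without the filter on dim probes (adjusted p = 0.0619) and without control replicate 3 (adjusted p = 0.0602). Casp8, the initiator at death receptors, had 2.30, 2.59 and 2.36 in the controls and 1.93, 2.16 and 2.08 on the CFD diet. These groups did not overlap, but the difference of -0.36 ± 0.13 missed the threshold (adjusted p = 0.0588). Casp8ap2, which encodes a caspase-8 binding protein of histone gene expression and not a caspase, differed by 0.37 ± 0.14 (adjusted p = 0.0690).

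**Figure D2:**
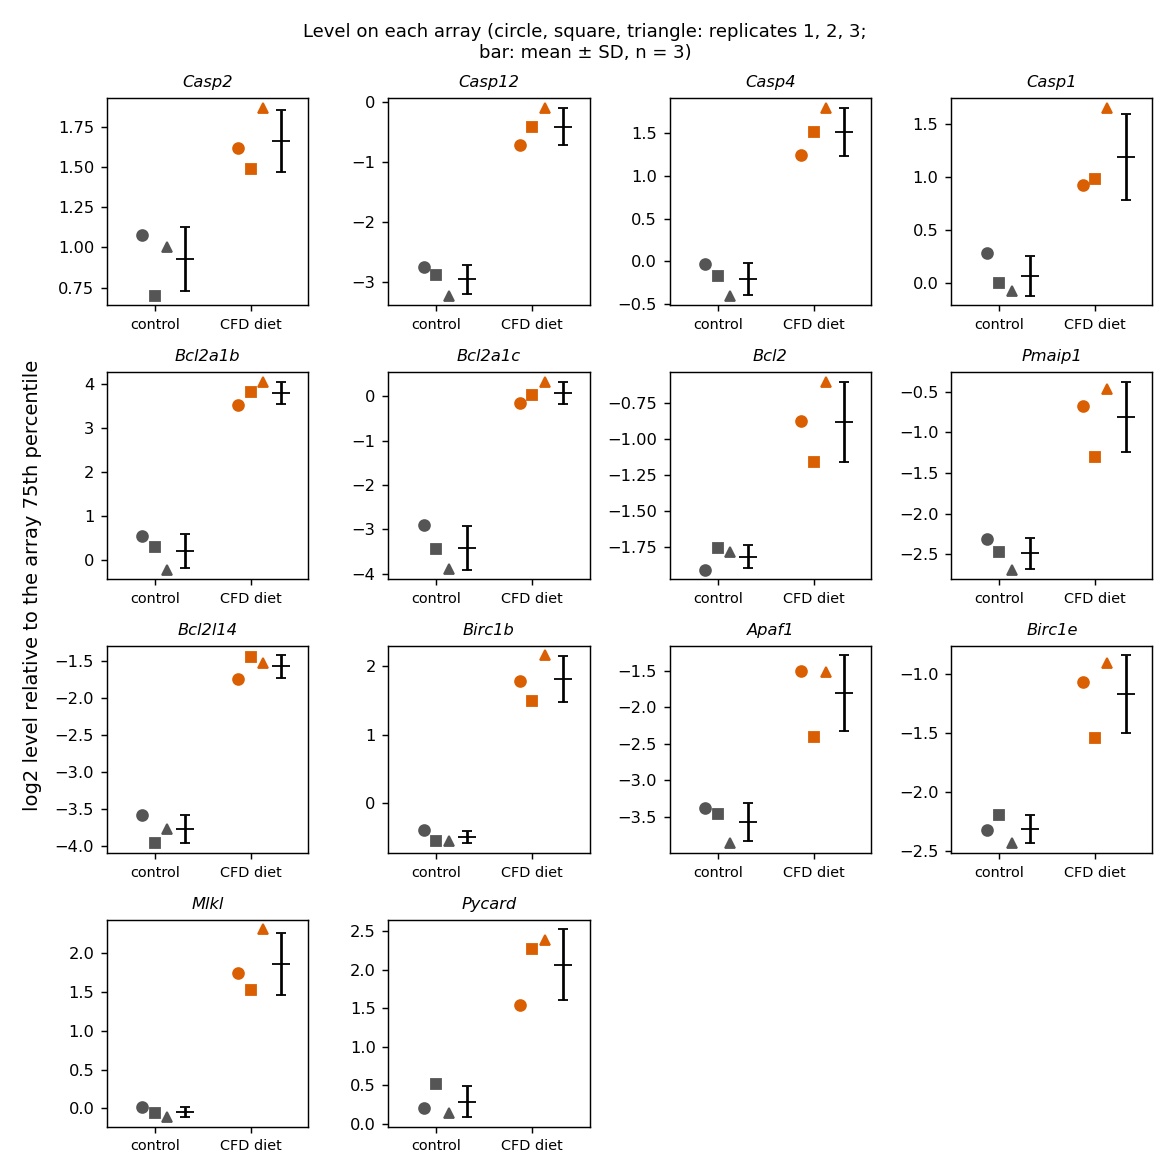
Log2 level relative to the array's 75th percentile on each of the 6 arrays for 14 members whose call held in all 15 alternative settings, with the mean and SD of 3 arrays beside each group. The vertical axes differ between panels. In every panel shown, the 3 CFD diet points lie wholly above the 3 control points.

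The survival branch of the BCL2 family was led by the A1 genes, which encode a short-lived survival protein of leukocytes. Bcl2a1b stood at 0.54, 0.30 and -0.21 in the controls and at 3.52, 3.82 and 4.03 on the CFD diet. Bcl2a1c stood at -2.91, -3.45 and -3.89 and at -0.16, 0.03 and 0.33. The groups of both were apart by more than 2 log2 units. Bcl2a1b rose by 3.58 ± 0.23 (12-fold, adjusted p = 0.000124) and Bcl2a1c by 3.48 ± 0.27 (11.2-fold, adjusted p = 0.000213), or 2.25 with normexp. The mouse A1 genes are near-identical copies, so each probe may also read other copies. All 4 tested neutrophil markers and 5 of 7 macrophage and Kupffer cell markers rose as well, while Clec4f fell and Cd163 was not called. The part of these cells in the A1 result was not tested.

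Bcl2 itself, the founding survival gene, rose from -1.91, -1.76 and -1.79 to -0.87, -1.16 and -0.60. The difference was 0.94 ± 0.17 (1.92-fold, adjusted p = 0.00437), and another probe gave 1.14 ± 0.19. A further Bcl2 probe, well above background on 0 control arrays, was at least 2.26-fold higher, by the bound explained under Apaf1. Bcl2l1, which encodes BCL-xL, rose by 0.60 ± 0.14 (adjusted p = 0.0114), from -0.37, -0.57 and -0.34 to 0.26, -0.01 and 0.26. Its call ended after median scaling (0.39, adjusted p = 0.0798) and without the filter on dim probes (adjusted p = 0.0547). Mcl1 was not called. It stood at 3.92, 4.20 and 3.95 in the controls and at 3.81, 3.78 and 4.04 on the CFD diet, with overlapping groups and a difference of -0.15 ± 0.14 (adjusted p = 0.404). A dimmer Mcl1 probe gave 0.49 ± 0.14 (adjusted p over all probes = 0.0267). Bcl2l2, which encodes BCL-w, changed by -0.63 ± 0.12 (adjusted p = 0.00558) on its bright probe, from 0.86, 1.01 and 0.91 to 0.26, 0.42 and 0.21. A dim probe designed on another Bcl2l2 sequence record rose by 1.61 ± 0.20 (adjusted p over all probes = 0.00137), so the direction for this gene depended on the probe. Bcl2l10 was well above background on 0 arrays.

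Of the pore formers in the set, Bak1 and Bok rose. Bak1 stood at 0.11, -0.02 and 0.16 in the controls and at 0.62, 0.94 and 1.41 on the CFD diet, a rise of 0.90 ± 0.21 (1.87-fold, adjusted p = 0.0114). A second Bak1 probe designed on the same sequence record went down, by -0.71 ± 0.20 (adjusted p over all probes = 0.0237), and the median of both probes was 0.10 (adjusted p = 0.581). Bok, a pore former less tied to survival proteins, stood at 2.52, 2.74 and 2.56 in the controls and at 2.84, 3.35 and 3.24 on the CFD diet. Its rise of 0.54 ± 0.17 (adjusted p = 0.0334) rested on all arrays together. The call ended when any array other than CFD diet replicate 1 was left out (adjusted p = 0.0521 to 0.102), after median scaling (0.33, adjusted p = 0.199) and without the filter on dim probes (adjusted p = 0.112). Bax, which the gene names of the set leave out, rose by 0.50 ± 0.12 (1.41-fold, adjusted p = 0.0119), a call that ended after median scaling (0.29, adjusted p = 0.147) and without the filter on dim probes (adjusted p = 0.0610).

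Of 7 tested BH3-only genes, 1 was called higher and 2 lower, or 42.9% in either direction, near the 51.1% of all tested genes. Pmaip1, which encodes NOXA, an antagonist of MCL1, stood at -2.31, -2.47 and -2.69 in the controls and at -0.67, -1.30 and -0.46 on the CFD diet. The groups were apart and the rise was 1.68 ± 0.24 (3.21-fold, adjusted p = 0.00197). Bid fell from 0.74, 0.61 and 0.73 to -0.29, 0.10 and 0.43, with the CFD diet arrays widely spread (SD 0.36, against 0.07 in the controls). Its change of -0.62 ± 0.19 (adjusted p = 0.0342) lost its call when any array other than CFD diet replicate 3 was left out (adjusted p = 0.0613 to 0.0971), and without the filter on dim probes (adjusted p = 0.111). Bik changed by -1.07 ± 0.31 (adjusted p = 0.0283), with -0.42, -0.86 and -0.41 in the controls and -2.18, -0.96 and -1.75 on the CFD diet. Within the slides the difference was -1.76, -0.10 and -1.34, and with the slide as a block the adjusted p was 0.0595. The Bik call also ended without control replicate 1 or 3 or CFD diet replicate 1 or 3 (adjusted p = 0.0681 to 0.0848) and without the filter on dim probes (adjusted p = 0.0907). Bcl2l11, which encodes BIM, differed by 0.60 ± 0.23 (adjusted p = 0.0681; 0.0272 with the slide as a block), Bmf by -0.77 ± 0.29 (adjusted p = 0.0659), Bad by -0.13 ± 0.11 (adjusted p = 0.341) and Bbc3, which encodes PUMA, by 0.08 ± 0.24 (adjusted p = 0.797). A dimmer Bad probe gave -1.24 ± 0.24. The dimmer Bcl2l11 probes, each well above background on 1 control array, gave 0.87 ± 0.17 and 0.09 ± 0.16. Hrk was well above background on 0 arrays.

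Of the other Bcl2-named genes, Bcl2l14 rose from -3.58, -3.97 and -3.78 to -1.74, -1.45 and -1.53. The rise of 2.20 ± 0.15 (4.60-fold, adjusted p = 0.000149) was 1.13 with normexp. A second probe gave 1.98 ± 0.17, but it was well above background on 1 control array and was tested through the CFD diet arrays. Bcl2l12 (-0.06 ± 0.17) and Bcl2l13 (-0.09 ± 0.11), the latter a mitochondrial outer membrane protein, had overlapping groups.

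**Figure D3:**
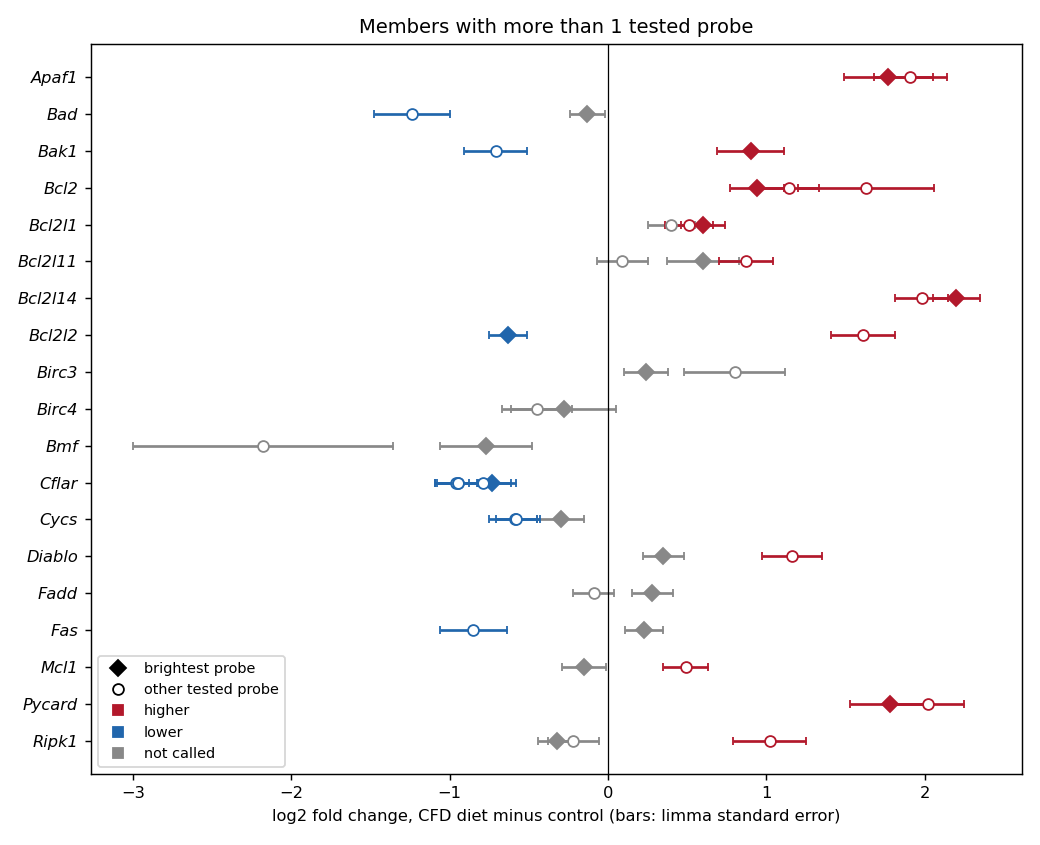
Log2 fold change, CFD diet minus control, of every tested probe for 19 members with more than 1 tested probe, with limma standard errors. Filled diamonds are the brightest probes, open circles the others, red called higher, blue called lower and grey not called. The probes of 5 members are all called the same way, and those of Bak1 and Bcl2l2 are called in opposite directions. Of the 5, an Apaf1 and a Bcl2 probe were well above background on 0 control arrays, and a Bcl2l14 probe on 1. These probes were tested through the CFD diet arrays, so their direction is no separate support. The Pycard probes, and a pair of the Cflar probes, overlap in position.

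At the apoptosome, Apaf1, the scaffold that activates caspase-9, rose while cytochrome c did not pass the test on its brightest probe. Apaf1 stood at -3.38, -3.46 and -3.87 in the controls and at -1.50, -2.41 and -1.51 on the CFD diet. The groups were apart, with CFD diet replicate 2 the lowest of its group, and the rise was 1.77 ± 0.28 (3.40-fold, adjusted p = 0.00304), or 0.93 with normexp. A second Apaf1 probe, well above background on 0 control arrays, was at least 1.83-fold higher. That bound sets the mean of the CFD diet arrays against the higher of the probe's own signal and the lowest signal well above background on each control array. Cycs, the somatic cytochrome c gene, differed by -0.30 ± 0.15 (adjusted p = 0.135) on its bright probe. It differed by -0.59 ± 0.16 and -0.58 ± 0.13 on 2 further probes, which were called and overlap each other in position. Diablo, which encodes the IAP antagonist SMAC, stood at 2.33, 2.11 and 2.28 in the controls and at 2.53, 2.72 and 2.53 on the CFD diet, a difference of 0.35 ± 0.13 (adjusted p = 0.0521). A dim Diablo probe, well above background on 1 control array and so tested through the CFD diet arrays, gave 1.16 ± 0.19 (adjusted p over all probes = 0.00344). Diablo was called with the median of both probes, which takes in the dim probe (0.76, adjusted p = 0.00396). It was also called after quantile normalization (0.55, adjusted p = 0.00575), with trend and robust settings and under the stricter filter.

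Among the IAP genes outside the Naip group, Birc2, a ubiquitin ligase of the tumour necrosis factor receptor complex, stood at 0.90, 0.55 and 0.63 in the controls and at 1.32, 1.04 and 1.50 on the CFD diet. The groups were apart, and the rise of 0.59 ± 0.17 (adjusted p = 0.0242) lost its call without control replicate 2 or 3 or CFD diet replicate 1 or 3 (adjusted p = 0.0634 to 0.0813). It also lost it after median scaling (0.39, adjusted p = 0.104) and without the filter on dim probes (adjusted p = 0.0891). Birc3, its neighbour on chromosome 9 at a distance of 22.8 kb, differed by 0.24 ± 0.14 (adjusted p = 0.182), Birc6 by 0.15 ± 0.16 (adjusted p = 0.448) and Birc4, the direct inhibitor of caspases known as XIAP, by -0.28 ± 0.33 (adjusted p = 0.506). The Birc4 differences within the slides were 0.66, -1.22 and -0.27, so its arrays had no common direction. Birc7 was not tested. Birc5, or survivin, which acts in mitosis and is not in the set, rose by 1.81 ± 0.26 with the other 4 markers of dividing cells.

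Of the 4 genes of the death receptor complex, Cflar was called, or 25% against 51.1% of all tested genes. The groups of all 4 did not overlap, 2 higher and 2 lower. Among all tested genes, 28.4% were apart upward and 34.6% downward. Cflar encodes FLIP, which keeps caspase-8 from firing at the receptor, and its level fell from 4.63, 4.47 and 4.65 to 3.63, 3.90 and 4.02. The groups were apart and the change was -0.73 ± 0.14 (1.66-fold lower, adjusted p = 0.00641). The 4 other Cflar probes, of which a pair overlaps in position, gave -0.79 to -0.96 and were called too. A dim probe that maps to Cflar but carries another name gave 0.23 ± 0.12 (adjusted p over all probes = 0.154), and after quantile normalization the bright probe's change was -0.39 (adjusted p = 0.0544). Fas, the receptor, stood at 2.10, 2.06 and 2.14 in the controls and at 2.20, 2.35 and 2.44 on the CFD diet. The CFD diet values were all higher, by 0.23 ± 0.12 (adjusted p = 0.144), and a dim probe designed on another Fas sequence record gave -0.85 ± 0.21 (adjusted p over all probes = 0.0144). The adaptor Fadd differed by 0.28 ± 0.13 (adjusted p = 0.106) and the kinase Ripk1 by -0.32 ± 0.12 (adjusted p = 0.0566), and a dim Ripk1 probe gave 1.02 ± 0.23.

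Mlkl encodes the protein that perforates the membrane in necroptosis, and it had the highest rise in that group. Its level was 0.02, -0.06 and -0.11 in the controls and 1.75, 1.53 and 2.31 on the CFD diet. The groups were far apart, with a rise of 1.91 ± 0.21 (3.76-fold, adjusted p = 0.000741). Ripk3, the kinase that activates it, stood at -1.12, -0.94 and -1.22 in the controls and at -0.94, -0.42 and -0.26 on the CFD diet. CFD diet replicate 1 overlapped the controls, and the difference of 0.55 ± 0.20 did not pass (adjusted p = 0.0563). Dropping that array, the nearest of its group to the controls, gave 0.75 (adjusted p = 0.0134), and dropping any other array gave no call. Ripk3 was also called with trend and robust settings (adjusted p = 0.0402) and under the filter for all 6 arrays (adjusted p = 0.0494). Ripk2, the kinase below the NOD receptors, differed by -0.35 ± 0.27 (adjusted p = 0.311).

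**Figure D4:**
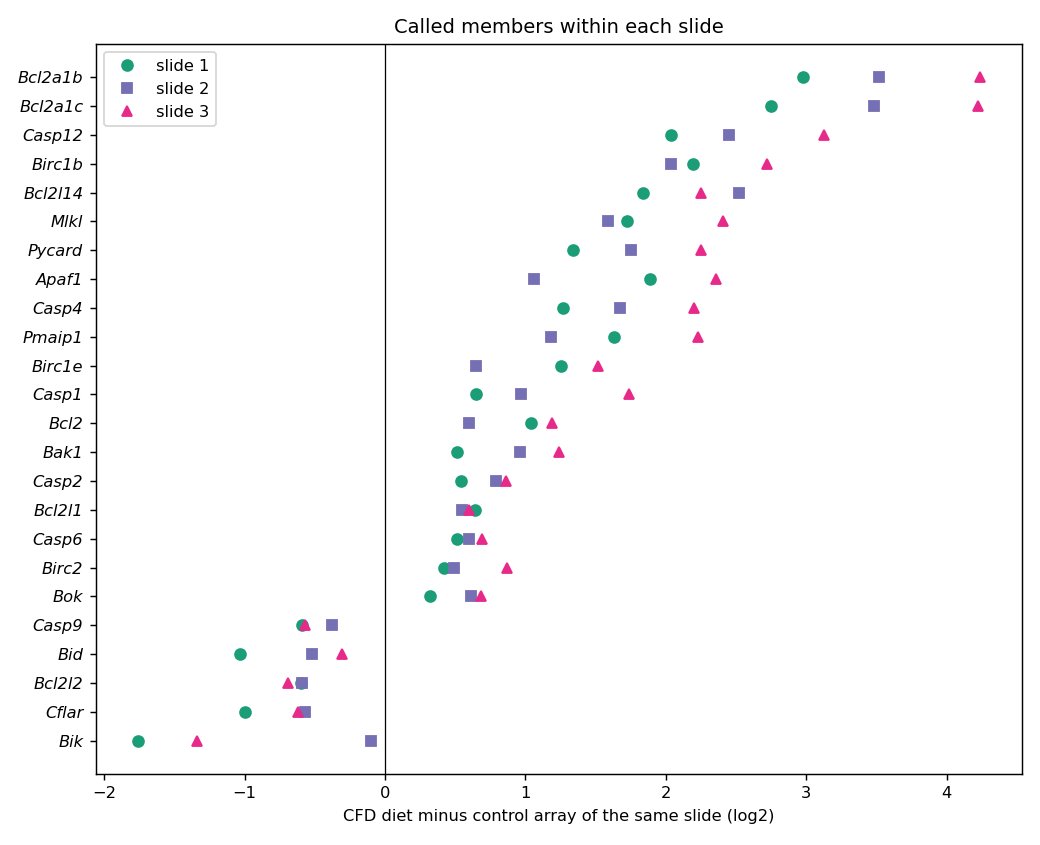
Difference between the CFD diet array and the control array of the same slide, on the log2 scale, for 24 called members. The 19 members called higher lie to the right of 0 on all 3 slides and 5 called lower lie to the left, with the smallest distance from 0 being 0.10 for Bik on slide 2.

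Within slides 1, 2 and 3, the members called higher had median differences of 1.27, 1.06 and 2.20, and those called lower -1.03, -0.57 and -0.69. The groups of all called members were apart, which fixes the sign on each slide, so the common sign is no further support. With the slide as a block, 20 members rose and 6 fell, against 22.2% and 23.8% of all genes.

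Of 56 further cell death genes on a list, 4 were Naip genes of the set, 51 were tested, 19 rose and 9 fell, with a median difference of 0.16. Among 16 tested genes of pyroptosis and interleukin-1, 9 rose and 2 fell. These counts stand beside the 23.7% of all tested genes that rose and the 27.4% that fell. Of the genes that rose, Tnf, Tnfrsf10b and Nod2 were well above background on 1 control array and Prf1 on 2. These genes were therefore tested through the CFD diet arrays, and Nod2 is among the 9 pyroptosis and interleukin-1 genes. Under the filter for all 6 arrays, 46 listed genes remained, of which 15 rose and 10 fell. The shares of all genes were then 19.8% and 30.5%. Il1b rose by 1.32 ± 0.21 (2.49-fold, adjusted p = 0.00335), and Il1rn, the antagonist of the interleukin-1 receptor, by 3.12 ± 0.19 (8.71-fold, adjusted p = 0.000109), while Il18 changed by -1.28 ± 0.23 (adjusted p = 0.00439). Gsdmd, which encodes the pore of pyroptosis, changed by -0.89 ± 0.19 (1.85-fold lower, adjusted p = 0.00798). The membrane channel Panx1 rose by 2.19 ± 0.23 (adjusted p = 0.000614). Gsdme, another pore protein, rose by 2.89 ± 0.21 on its brightest probe (adjusted p = 0.000188), but another probe gave 0.00 ± 0.16. A probe that the array names Fin15, matched to Gsdme through the naming steps and of uncertain assignment, gave -0.52 ± 0.14.

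Death ligands and receptors on that list had 3 genes higher and 1 lower of 10, a share called no higher than that of all tested genes. Tnf rose by 3.54 ± 0.35 (adjusted p = 0.000546) and Tnfrsf10b, the mouse TRAIL receptor, by 2.99 ± 0.25 (adjusted p = 0.000297). Both were well above background on 1 control array, and with normexp they rose by 1.28 and 0.90. Tnfaip3, a ubiquitin-editing enzyme that limits signalling to NF-kB, rose by 2.26 ± 0.23 (adjusted p = 0.000593). Cidec and Cidea, named for death-inducing domains and known as lipid droplet proteins, rose by 3.49 ± 0.57 (adjusted p = 0.00325) and 2.51 ± 0.76 (adjusted p = 0.0313). Blocking on the slide took Cidea past the threshold (adjusted p = 0.0518). Its call also ended when CFD diet replicate 2 or 3 was dropped (adjusted p = 0.0884 and 0.0970), with trend and robust settings (adjusted p = 0.0523) and without the filter on dim probes (adjusted p = 0.0949).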

How the data were processed

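Liver RNA of 6 samples, 3 for each diet, was measured on 1-colour arrays. The deposited scanner files hold an intensity per spot, background-subtracted with Agilent Feature Extraction, version 10.5.1.1 per the file headers and 10.7 per the submitters' processing notes. Probe coordinates are those of build mm7, per the file headers. The deposited value table of the authors holds intensity on a linear scale, with column medians of 68.0, 61.5 and 67.6 for control replicates 1 to 3 and 72.7, 73.9 and 80.6 for CFD diet replicates 1 to 3, as the table numbers them. Each column had a rank correlation of 1 with the scanner file of another replicate of its own group, so the scanner files set the replicate numbers used here, and the table served as an alternative. Which numbering is intended stays unknown, and no centring was seen. There were 0 unmapped columns.

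Control and outlier spots were left out, spots of a probe were averaged, and log2 signals were set relative to each array's 75th percentile. The NF-kB motif was searched as its usual degenerate consensus. Probes well above background on all 3 arrays of a group were kept (23476). No tested member lacked an array value. Names were updated through RefSeq (GRCm38.p6): 22951 probes through an accession, 6659 through a current symbol and 3109 through an older one, with 8455 left under the array's name. Tests used limma 3.58.1 in R 4.3.3 (lmFit, eBayes), without a block, and the fit was tested on simulated data. Replicate numbers were not taken as pairs: the deviations from the group means of same-numbered arrays had correlations of 0.17, -0.07 and -0.01. The named genes were up to 4 called members with the largest change in each role, then Casp1, Casp8, Casp9, Bcl2, Bcl2l1, Mcl1, Bid, Bak1, Fas, Ripk3, Mlkl, Nlrp3, Pycard and Xiap, up to 8 called genes of the pathway list with the largest change, and Bax, Gsdmd, Il1b and Il18. Members and sensors outside that rule are named to account for them. Some members enter the counts but are not reported here by name or in the plots. The members and lists were chosen with earlier results of these data known. Alternatives were normexp background correction (offset 50), median and quantile scaling, other filters, the slide as a block, trend and robust settings, the median of a gene's probes, the value table, and leaving out each array. With 3 arrays a group, the array number sets the precision.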

Additional observations from a re-analysis of the deposited data

How the results depend on the processing

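Of the 26 called members, 16 kept direction and call in all 15 alternative settings. The number of members that rose was 15 to 22 over the settings. The number that fell was 4 without the filter on dim probes and 4 to 8 when single arrays were left out, and the number of other pathway genes that fell was 14 after median scaling and 6 to 11 when single arrays were left out. After median scaling members split into 15 higher and 10 lower, and after quantile normalization into 21 and 6, against 19 and 7. The shares of all genes called higher and lower moved too, from 23.7% and 27.4% to 18.4% and 36.5% with median scaling, to 27.3% and 25.5% with quantile normalization and to 11% and 8.89% without the filter on dim probes, which also tests more genes. With trend and robust settings 22 members rose and 10 fell (24.1% and 28.5% of all genes). The cause was not tested. The median of a gene's tested probes turned Bcl2l2 to 0.49, Mcl1 to 0.17, Fas to -0.31 and Gsdme to -0.52, because the probes of these genes disagree. The Gsdme value equals that of the Fin15 probe, whose assignment is uncertain, so it is no consensus of the Gsdme probes. Quantile normalization turned Mcl1 to 0.18, Bcl2l13 to 0.10 and Cycs to 0.16. Median scaling turned Bbc3 to -0.12 and Birc6 to -0.05. With single arrays left out, Bbc3 ranged from -0.18 to 0.25, turning to -0.18 without control replicate 2 and to -0.02 when CFD diet replicate 3 was dropped, and Bcl2l12 ranged from -0.19 to 0.09, turning when CFD diet replicate 1 was dropped. Calls were gained for Casp8, Bmf and Ripk1 after median scaling, for Fas and Diablo after quantile normalization, and for Ripk3 and Diablo under the filter for all 6 arrays. Trend and robust settings gained Casp8, Ripk3, Bcl2l11, Bmf, Diablo and Ripk1, and the median of probes gained Bcl2l11, Bad, Bmf, Diablo and Cycs. Leaving out CFD diet replicate 1 gained Ripk3, CFD diet replicate 2 gained Casp8, Bcl2l11 and Cycs, and control replicate 2 gained Bmf. With the replicate block, which is the slide, 20 members rose and 6 fell, as did 17 and 7 of the other pathway genes. The numbers share a slide but did not pair by the correlation check, and the block ended the call of Bik and gained that of Bcl2l11. Signals near background, as for Nlrp3 and 7 members with no test, limit what can be read.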
